A study of Rattus norvegicus with 15 samples.

Results

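Zbtb16 encodes a transcription factor with a BTB/POZ domain and zinc fingers, also called PLZF, and its transcript is among those most readily induced by glucocorticoid hormones in many cell types. It is described here in rat aorta together with 5 other glucocorticoid-induced genes, Fkbp5, Tsc22d3, Sgk1, Klf9 and Pdk4, all of which were measured, so that 6 of 15739 features are at issue. Zbtb16 was chosen by its measured signal on these same arrays, selected on how it differed between groups, so its own values are given as a description with no test. The other 5 genes were named for their known induction by glucocorticoids, but with earlier results of these data known.

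The aortas came from Sprague Dawley rats, and each array held the pooled RNA of 2 rats of one group. Of the 5 groups of 3 arrays, 4 consisted of rats made uremic by 5/6 nephrectomy (NX), treated by intraperitoneal injection 3 times a week for 12 days. These rats received VS-105 at 0.01 µg/kg, alfacalcidol at 0.04 µg/kg, paricalcitol at 0.08 µg/kg or vehicle. The fifth group, age-matched sham rats, was untreated, so that nephrectomy and injection differ together between any NX group and sham. The compounds activate the vitamin D receptor, alfacalcidol being a prodrug, and because their doses differed their values are set side by side, with no test between compounds. The labels give neither the sex of the rats nor the hour of death, and a group effect and a difference in time of day cannot be told apart.

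Glucocorticoids enter cells by diffusion and bind the glucocorticoid receptor, which is held by chaperones in the cytoplasm and, once bound, moves to the nucleus and acts on response elements near its target genes. Adrenal secretion of corticosterone, the main glucocorticoid of the rat, follows a daily rhythm and also rises with stress. Per1 and Per2, components of the circadian clock, are themselves glucocorticoid-responsive, and several glucocorticoid targets follow a daily rhythm in peripheral tissues. In vessels the receptor is present in smooth muscle and endothelium.

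The windows around the transcription starts of Fkbp5 and Klf9, whose profiles over the arrays were most like that of Zbtb16 among the 6 genes, and of Per2, a clock gene with a similar profile, are shown because glucocorticoid and clock motifs could be looked for in them. Each holds 250 bases before and 50 bases after the start (RefSeq, GRCr8), read 5′ to 3′ on the gene's strand, at chr20:6543506-6543805 (minus strand) for Fkbp5, chr1:230126396-230126695 (plus strand) for Klf9 and chr9:99496944-99497243 (minus strand) for Per2. Capitals mark a D-box, the motif TTATGTAA bound by Dbp and its relatives.
Fkbp5: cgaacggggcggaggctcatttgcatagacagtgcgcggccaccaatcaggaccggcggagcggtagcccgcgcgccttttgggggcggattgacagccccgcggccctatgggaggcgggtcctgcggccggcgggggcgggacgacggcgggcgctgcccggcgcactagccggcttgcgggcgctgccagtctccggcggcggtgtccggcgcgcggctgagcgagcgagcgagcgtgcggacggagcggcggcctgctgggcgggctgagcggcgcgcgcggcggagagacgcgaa
Klf9: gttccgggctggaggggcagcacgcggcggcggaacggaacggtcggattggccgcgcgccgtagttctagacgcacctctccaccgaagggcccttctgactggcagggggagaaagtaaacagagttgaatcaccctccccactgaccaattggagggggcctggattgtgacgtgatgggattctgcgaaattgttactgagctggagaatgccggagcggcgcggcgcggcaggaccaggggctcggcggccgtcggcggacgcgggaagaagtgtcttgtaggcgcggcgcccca
Per2: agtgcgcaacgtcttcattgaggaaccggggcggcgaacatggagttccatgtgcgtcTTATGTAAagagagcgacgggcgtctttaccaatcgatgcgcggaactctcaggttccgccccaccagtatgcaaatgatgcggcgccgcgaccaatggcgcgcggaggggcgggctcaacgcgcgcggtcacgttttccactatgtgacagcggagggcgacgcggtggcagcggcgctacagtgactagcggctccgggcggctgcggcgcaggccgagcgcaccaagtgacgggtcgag
The motifs were searched on both strands. The full glucocorticoid response element, taken as AGAACA followed after 3 bases by its reverse complement, occurred in 0.0149% of 33469 promoter windows, the single site AGAACA, which is part of the full element, in 20.7%, the E-box CACGTG in 6.42% and the D-box in 0.893%. The only match in the windows of Fkbp5, Tsc22d3, Sgk1, Klf9, Pdk4, Per1 and Per2 was the D-box of Per2, whose first base lies at -192. Only these exact letters were searched, so the result says nothing of variant forms within the windows or of elements elsewhere.

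Values are log2 signals, and array medians lay between 2.33 and 2.64. Smooth muscle genes were abundant on all 15 arrays, with Myh11, smooth muscle myosin heavy chain, between 8.65 and 9.96 and the endothelial adhesion gene Pecam1 between 4.90 and 6.18. On 3 arrays transcripts of other tissues stood out. Skeletal muscle genes (15 measured) averaged 3.59 on NX-VS-105 array 1, against at most 0.84 elsewhere. Intestinal genes (11 measured) averaged 0.52 and 3.24 on NX-vehicle arrays 2 and 3, against at most -0.77 elsewhere. Fits without these 3 arrays leave array 1 alone in NX-vehicle, so only differences are given there for comparisons with vehicle.

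Zbtb16 signal was highest in the alfacalcidol group. It read 1.40, 0.29 and 0.08 in NX-VS-105 aortas, 2.28, 0.99 and 1.60 in NX-alfacalcidol, -0.42, -0.10 and 0.13 in NX-paricalcitol, -0.29, 0.67 and -0.08 in NX-vehicle, and -0.19, -0.73 and -0.50 in sham. All 3 alfacalcidol arrays lay above every vehicle, paricalcitol and sham array, and NX-VS-105 array 1 lay within the alfacalcidol range. The group means were 0.59 ± 0.71, 1.62 ± 0.64, -0.13 ± 0.28, 0.10 ± 0.51 and -0.47 ± 0.27 in the same order (SD, n = 3 each). At these unequal doses the order from high to low was alfacalcidol, VS-105, vehicle, paricalcitol and sham, and the arrays of each pair of neighbours in that order overlapped. The difference from vehicle was 1.52 for alfacalcidol (2.87-fold), 0.49 for VS-105 and -0.23 for paricalcitol. The difference from sham was 2.10 for alfacalcidol, 1.06 for VS-105, 0.34 for paricalcitol and 0.57 for vehicle. Without NX-VS-105 array 1 the VS-105 difference from vehicle was 0.08 and that from sham 0.66, and without NX-vehicle array 2 the vehicle difference from sham was 0.29.

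**Figure D1:**
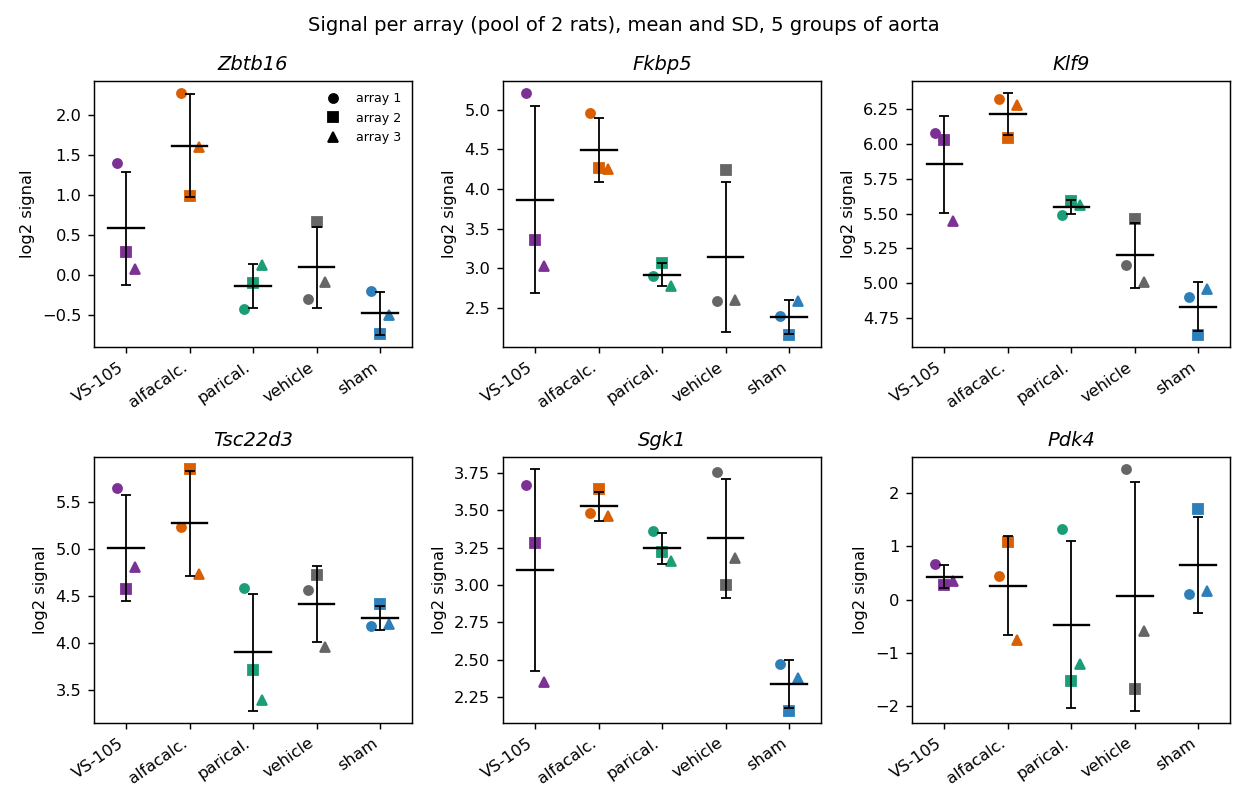
Log2 signal of the 6 genes on each array (points, shaped by array number) in NX-VS-105, NX-alfacalcidol, NX-paricalcitol, NX-vehicle and sham aortas, with the group mean (bar) and SD (whiskers) of 3 arrays. Zbtb16 and Fkbp5 are high on the alfacalcidol arrays, on NX-VS-105 array 1 and, less so, on NX-vehicle array 2, while Klf9 is low on all sham arrays and Pdk4 varies within groups.

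Fkbp5 encodes a co-chaperone that binds the glucocorticoid receptor complex and lowers its affinity for hormone. Its signal was 5.21, 3.36 and 3.03 in NX-VS-105 aortas, 4.96, 4.26 and 4.25 in NX-alfacalcidol, 2.90, 3.07 and 2.78 in NX-paricalcitol, 2.59, 4.24 and 2.60 in NX-vehicle, and 2.40, 2.16 and 2.59 in sham. As with Zbtb16, the alfacalcidol arrays, NX-VS-105 array 1 and NX-vehicle array 2 stood highest. Alfacalcidol and sham arrays did not overlap, with a difference of 2.11 ± 0.52 (SE), or 4.31-fold, which missed the threshold of 0.05 (limma, adjusted p = 0.0574 over all features). It passed without NX-VS-105 array 1 (limma, adjusted p = 0.0271) and without NX-vehicle array 2 (0.0365). Those arrays are in neither group, so the difference stayed at 2.11 and only its estimated spread and the adjustment changed. With other single arrays left out the adjusted p in limma reached 0.203. The VS-105 difference from sham was 1.48 (limma, adjusted p = 0.0697), and it was 0.81 without NX-VS-105 array 1, which carried the skeletal muscle transcripts. Without NX-vehicle array 2 it passed at an adjusted p of 0.0423 in limma, and with other single arrays left out the adjusted p reached 0.217. Against vehicle, alfacalcidol differed by 1.35 (limma, adjusted p = 0.240), VS-105 by 0.73 (adjusted p = 0.438) and paricalcitol by -0.22 (adjusted p = 0.843). The VS-105 difference from vehicle was 0.05 without NX-VS-105 array 1 and 1.27 without NX-vehicle array 2.

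Klf9, a Krüppel-like transcription factor induced by glucocorticoids and rhythmic in several tissues, rose against sham under all 3 compounds. Its signal was 6.08, 6.03 and 5.45 in NX-VS-105 aortas, 6.32, 6.04 and 6.28 in NX-alfacalcidol, 5.49, 5.59 and 5.56 in NX-paricalcitol, 5.13, 5.46 and 5.01 in NX-vehicle, and 4.90, 4.63 and 4.96 in sham. No array of an NX group fell to the level of any sham array. The difference from sham was 1.38 ± 0.18 (SE) for alfacalcidol, or 2.61-fold (limma, adjusted p = 0.0038), 1.02 for VS-105, or 2.03-fold (adjusted p = 0.00723), and 0.72 for paricalcitol, or 1.64-fold (adjusted p = 0.038). The vehicle difference from sham was 0.37 (limma, adjusted p = 0.558). The paricalcitol call was lost without sham array 1 (limma, adjusted p = 0.0621), sham array 2 (0.127), NX-paricalcitol array 2 (0.152) or 3 (0.100), and NX-alfacalcidol array 3 (0.0560). It was also lost without moderation (adjusted p = 0.0533) and with the array number as a block in limma (adjusted p = 0.0645). Against vehicle, alfacalcidol differed by 1.02 with no overlap (limma, adjusted p = 0.064) and VS-105 by 0.66 (adjusted p = 0.0566). The alfacalcidol difference from vehicle was 0.85 after array medians were subtracted (limma, adjusted p = 0.0309). Both differences passed when only features above the median level were tested (limma, adjusted p = 0.0354 for alfacalcidol and 0.0371 for VS-105). Leaving out single arrays moved the adjusted p in limma from 0.0256 to 0.253 for alfacalcidol and from 0.0478 to 0.232 for VS-105.

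Tsc22d3 encodes GILZ, a leucine zipper protein that carries part of the anti-inflammatory action of glucocorticoids. It was at 5.65, 4.58 and 4.81 in NX-VS-105 aortas, 5.24, 5.86 and 4.74 in NX-alfacalcidol, 4.59, 3.71 and 3.39 in NX-paricalcitol, 4.56, 4.72 and 3.95 in NX-vehicle, and 4.18, 4.41 and 4.20 in sham. All VS-105 and alfacalcidol arrays lay above all sham arrays, while paricalcitol and vehicle arrays overlapped sham. The difference from sham was 1.02 for alfacalcidol (limma, adjusted p = 0.111), 0.75 for VS-105 (adjusted p = 0.166) and -0.36 for paricalcitol (adjusted p = 0.532). Against vehicle it was 0.88 for alfacalcidol (limma, adjusted p = 0.250), 0.61 for VS-105 (adjusted p = 0.347) and -0.51 for paricalcitol (adjusted p = 0.501). Without NX-VS-105 array 1 the VS-105 difference was 0.44 from sham and 0.29 from vehicle.

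Sgk1 encodes a kinase induced by glucocorticoids and mineralocorticoids that regulates sodium transport. Its signal was 3.67, 3.28 and 2.35 in NX-VS-105 aortas, 3.48, 3.64 and 3.46 in NX-alfacalcidol, 3.36, 3.22 and 3.16 in NX-paricalcitol, 3.76, 3.00 and 3.18 in NX-vehicle, and 2.47, 2.16 and 2.38 in sham. Every NX array except NX-VS-105 array 3 lay above the sham arrays, vehicle included. The difference from sham was 1.19 for alfacalcidol (limma, adjusted p = 0.0512), 0.91 for paricalcitol (adjusted p = 0.0619), 0.76 for VS-105 (adjusted p = 0.0767) and 0.98 for vehicle (adjusted p = 0.438). Without NX-VS-105 array 3 the values were 1.14 for VS-105 (limma, adjusted p = 0.0231), 1.19 for alfacalcidol (0.0190) and 0.91 for paricalcitol (0.0289). Leaving out NX-vehicle array 1 or NX-VS-105 array 1 also brought the alfacalcidol (limma, adjusted p = 0.0357 and 0.0375) and paricalcitol (0.0491 and 0.0478) differences past the threshold, and leaving out NX-vehicle array 2 did so for alfacalcidol (0.0477). With other single arrays left out the adjusted p in limma reached 0.178 for alfacalcidol, 0.195 for paricalcitol and 0.246 for VS-105. Differences from vehicle lay between -0.21 and 0.21.

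Pdk4, pyruvate dehydrogenase kinase 4, is induced by glucocorticoids and by fasting and shifts fuel use from glucose to fatty acids. It was at 0.67, 0.27 and 0.34 in NX-VS-105 aortas, 0.45, 1.08 and -0.75 in NX-alfacalcidol, 1.32, -1.53 and -1.21 in NX-paricalcitol, 2.45, -1.68 and -0.59 in NX-vehicle, and 0.11, 1.69 and 0.16 in sham. All groups overlapped in all 7 comparisons, and no difference passed in limma (adjusted p between 0.457 and 0.905). Over the 15 arrays Pdk4 followed the mean of 8 brown adipocyte genes (r = 0.92) and of 12 white adipocyte genes (r = 0.86). Those means ranged from 1.17 to 4.10 and from 2.78 to 5.67, with Ucp1, the uncoupling protein of brown fat, between 3.70 and 9.65. The part of attached fat in the Pdk4 values was not tested, and in bulk tissue fewer cells of a type and less RNA per cell cannot be told apart. For Zbtb16 and Fkbp5 the correlation with the brown adipocyte mean was -0.24 and -0.23.

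**Figure D2:**
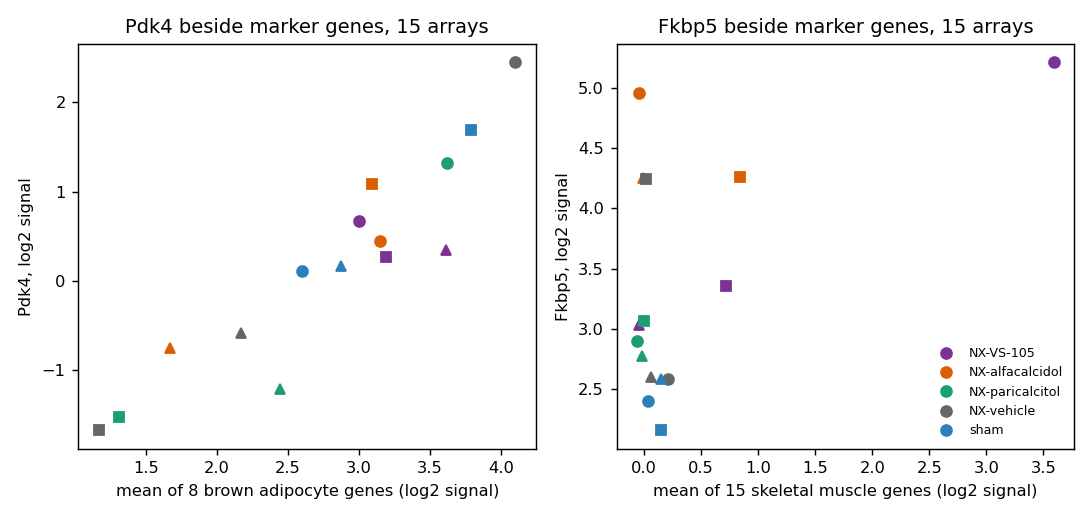
Pdk4 against the mean of 8 brown adipocyte genes (left) and Fkbp5 against the mean of 15 skeletal muscle genes (right), log2 signal, with 1 point per array coloured by group. Pdk4 climbs with the brown adipocyte mean (r = 0.92), and NX-VS-105 array 1 stands alone at a skeletal muscle mean of 3.59 with the highest Fkbp5 signal, 5.21.

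The wider list of glucocorticoid-induced genes was taken as the 5 companions of Zbtb16 and 21 further measured genes of 25 listed. Of these 26, limma called 3 higher and 0 lower in NX-VS-105 against sham, where 15.9% of all features were called (7.88% higher). In NX-alfacalcidol against sham 1 was higher, where 1.75% of all features were called (1.17% higher), and in NX-paricalcitol against sham 1 was higher, where 6.98% were called (5.51% higher). Klf9 was called in each. The other calls under VS-105 were Bcl6, a BTB zinc finger repressor, at 1.18 (limma, adjusted p = 0.0125), and Glul, glutamine synthetase, at 1.75 (adjusted p = 0.0446). The Glul call was lost in 9 and the Bcl6 call in 1 of the 15 fits that each left out 1 array. Without the 3 arrays with other tissues the counts were 4 for alfacalcidol and 3 for paricalcitol against sham. Leaving out single arrays moved them from 2 to 4 for VS-105, from 1 to 4 for alfacalcidol and from 0 to 3 for paricalcitol. The number of all features called moved too, from 583 to 2778, from 31 to 861 and from 0 to 1482. The shares above belong to the fit of all 15 arrays and are no background for the counts in these other fits. In NX-vehicle against sham 0 of 26 were called, where 0% of all features were.

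The list medians lay above those of all features in each comparison with sham. They were 0.40 for VS-105, 0.45 for alfacalcidol, 0.29 for paricalcitol and 0.25 for vehicle, beside 0.06, 0.14, 0.10 and -0.04 over all features. At an unadjusted p under 0.05 in limma the counts were 9, 10, 7 and 3 of 26, in the same order, where 33.9%, 26.7%, 29.8% and 9.04% of all features were below it. In the same order, the medians of 11 macrophage genes, Cd163 among them, were 0.75, 0.06, 0.78 and 0.69, and those of 19 immediate early genes were -0.25, 0.33, 0.10 and 0.92. Those of 12 white adipocyte genes were 0.76, -0.47, -0.44 and -0.54, and those of 15 skeletal muscle genes 1.14, 0.26, -0.05 and 0.13. The part of any of these in the list values, or in the Glul call under VS-105, was not tested. All 3 arrays lay above all sham arrays for 10 of 26 genes under alfacalcidol (25.7% of all features), 8 under paricalcitol (22.7%), 7 under VS-105 (21.8%) and 6 under vehicle (4.77%). Among those not called under alfacalcidol, the smallest p-values of the 21 further genes belonged to Nfkbia, the NF-kappa-B inhibitor, at 0.78 (limma, adjusted p = 0.0636), and Bcl6 at 0.74 (adjusted p = 0.0974). Under paricalcitol they belonged to Nfkbia at 0.56 (limma, adjusted p = 0.0972) and Map3k6 at 0.84 (adjusted p = 0.108), and under vehicle to Cd163, a macrophage scavenger receptor, at 1.13 (adjusted p = 0.523) and Map3k6 at 0.75 (adjusted p = 0.541).

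Against vehicle, limma called 0 of the 26 under any compound, where 4.55% of all features were called for VS-105, 0.0445% for alfacalcidol and 0% for paricalcitol. At an unadjusted p under 0.05 the counts were 3 for VS-105, 5 for alfacalcidol and 0 for paricalcitol, where 22.7%, 18.2% and 14.8% of all features were below it. Without moderation 0 of the 26 were called under any compound. With array weights 3, 6 and 2 were called for VS-105, alfacalcidol and paricalcitol. In that fit 3113, 5996 and 3107 of all 15739 features were called, so the shares above do not apply to it. When only features above the median level were tested 2 were called for VS-105 and 1 for alfacalcidol, and subtracting array medians gave 1 for alfacalcidol. For alfacalcidol 13 and 152 features were called over all in these fits. The medians were 0.10, 0.18 and -0.06, beside 0.07, 0.20 and 0.15 over all features. Bcl6 differed by 0.87 under VS-105 (limma, adjusted p = 0.069) and Glul by 1.51 (adjusted p = 0.124). Under alfacalcidol Foxo3 differed by 0.47 (limma, adjusted p = 0.236) and Nfkbia by 0.53 (adjusted p = 0.242), and under paricalcitol Errfi1 by -0.73 (adjusted p = 0.364). Dusp1, a phosphatase that is both glucocorticoid-induced and an immediate early gene, differed by -0.81, -0.56 and -1.20 under VS-105, alfacalcidol and paricalcitol (limma, adjusted p from 0.408 to 0.615).

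**Figure D3:**
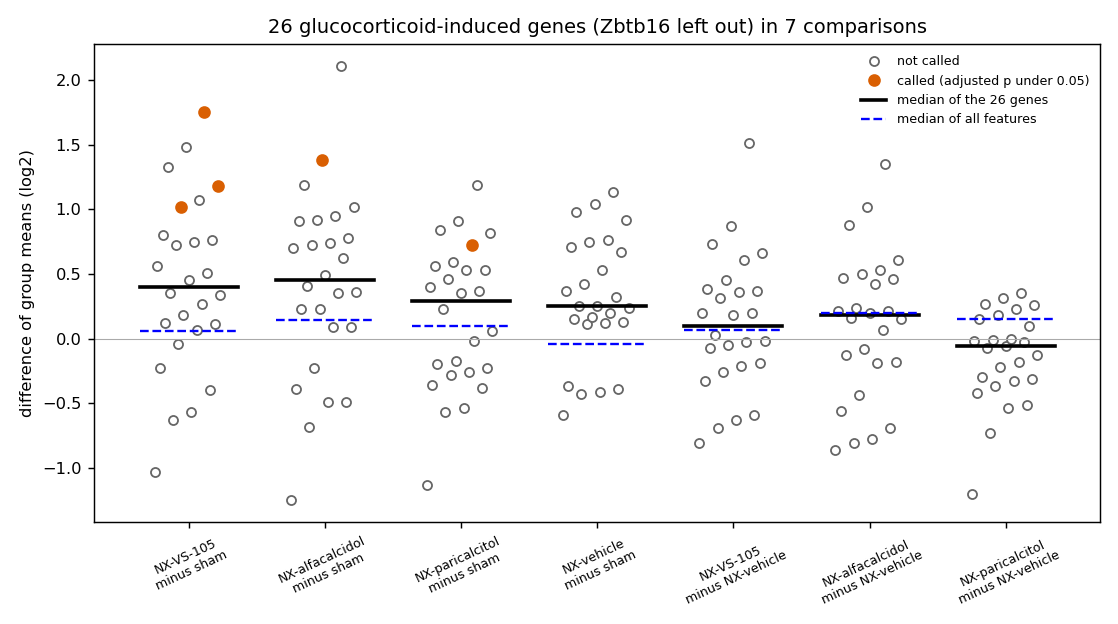
Difference of group means (log2) of the 26 glucocorticoid-induced genes without Zbtb16 in 7 comparisons, with called genes filled, the median of the 26 as a solid line and that of all features as a dashed line. Klf9 is the filled point under alfacalcidol and paricalcitol against sham, and no point is filled in the comparisons with vehicle.

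Nr3c1, the glucocorticoid receptor, lay between 1.42 and 2.09 on all arrays and differed by at most 0.26 in any comparison (limma, adjusted p from 0.401 to 0.976). Nr3c2, the mineralocorticoid receptor, Hsd11b1, the enzyme that regenerates active glucocorticoid, and Serpina6, corticosteroid-binding globulin, were not called in any comparison, and Serpina6 lay between -5.58 and -2.46, near the lowest values of the arrays. Of 14 receptor chaperones and coregulators, Hspa8, a constitutive heat shock protein, rose by 0.98 under alfacalcidol against sham (limma, adjusted p = 0.0355). Vehicle and paricalcitol shared most of this, and VS-105 little of it. Hspa8 means were 7.04 in NX-VS-105, 7.84 in NX-alfacalcidol, 7.59 in NX-paricalcitol, 7.70 in NX-vehicle and 6.86 in sham. Under VS-105 against sham, Stip1, a co-chaperone, rose by 0.44 (limma, adjusted p = 0.0397) and Ncoa2, a steroid receptor coactivator, fell by 0.95 (adjusted p = 0.0237). That is 1 of 14 called under alfacalcidol, beside 1.75% of all features, and 2 of 14 under VS-105, beside 15.9%. Leaving out single arrays lost the Hspa8 call in 6, the Stip1 call in 7 and the Ncoa2 call in 4 of 15 fits.

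Of 10 genes known to be repressed by glucocorticoids, Il1b, which encodes interleukin-1 beta, fell by 1.71 under alfacalcidol (limma, adjusted p = 0.0443) and by 1.25 under VS-105 (adjusted p = 0.0417) against sham. That is 1 of 10 called under each, beside 1.75% and 15.9% of all features. Of the 10, 4 under alfacalcidol and 7 under VS-105 were above sham, with list medians of -0.19 and 0.18. The adhesion genes Icam1 and Vcam1 rose under paricalcitol against sham, by 0.87 (limma, adjusted p = 0.043) and 1.56 (adjusted p = 0.045). That is 2 of 10 called, beside 6.98% of all features. Their means also lay above sham in the other NX groups. For VS-105, alfacalcidol, paricalcitol, vehicle and sham, Icam1 averaged 3.88, 3.74, 4.29, 3.87 and 3.42, and Vcam1 7.39, 7.97, 8.34, 7.80 and 6.78. Leaving out single arrays lost the Il1b calls in 9 of 15 fits each, the Icam1 call in 8 and the Vcam1 call in 11. Without sham array 2 or NX-paricalcitol array 2 no feature at all was called under paricalcitol against sham. Without the 3 arrays with other tissues the adjusted p of Il1b in limma was 0.0673 for alfacalcidol and 0.122 for VS-105. Against vehicle 0 of the 10 were called in limma, with 2, 4 and 1 at an unadjusted p under 0.05 for VS-105, alfacalcidol and paricalcitol, beside the 22.7%, 18.2% and 14.8% of all features given above. All features called there made up 4.55%, 0.0445% and 0%. Of 10 genes of fasting and fatty acid use, 0 were called in any comparison in limma, with at most 2 at an unadjusted p under 0.05. Over the 7 comparisons 0% to 15.9% of all features were called, and 9.04% to 33.9% had an unadjusted p under 0.05. Among 14 relatives and partners of Zbtb16, limma called 5 under VS-105 against sham, with Bcl6 and Zbtb7c (1.09, adjusted p = 0.0305) among those that rose and Zbtb38 (-1.10, adjusted p = 0.0125) and Zbtb44 (-0.71, adjusted p = 0.0293) lower. Of all features 15.9% were called in that comparison, and without the 3 arrays with other tissues 1 of the 14 was. Zbtb17 rose by 0.61 under paricalcitol against sham (limma, adjusted p = 0.0393), the only one of the 14 called there, beside 6.98% of all features. Its call was lost in 7 of 15 fits with a single array left out, sham array 2 and NX-paricalcitol array 2 among them, and without the 3 arrays with other tissues (adjusted p = 0.0547).

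Of 10729 features with a gene symbol, Fkbp5 had the profile most like that of Zbtb16 over the 15 arrays (r = 0.93). Next came Wee1, a clock-controlled kinase that holds back mitosis (r = 0.89), Eef2k, a kinase of translation elongation (0.88), Sp2 (0.86), Klf9 (0.86), Per2 (0.86), Fzd9, a Wnt receptor (0.85), and Cys1 (0.85). The most opposite were Ltb, lymphotoxin beta (-0.85), Rnf144a (-0.83), Bach2 (-0.83) and Il1b (-0.82). These correlations are descriptions over arrays that share groups and pools, and Zbtb16 was chosen for its pattern. The correlation of deviations from the group means, which leaves out differences between groups, was 0.85 for Fkbp5 and Fzd9, 0.73 for Klf9, 0.59 for Per2 and 0.54 for Wee1. Fkbp5 varied most within NX-VS-105 (SD 1.18) and NX-vehicle (SD 0.95), beside SDs of 0.15 to 0.41 in the other groups. Those groups hold the 3 arrays with other tissues, and the correlation of deviations was not recomputed without these arrays. Tsc22d3 (r = 0.62), Sgk1 (0.55) and Pdk4 (-0.19) ranked 507, 1279 and 8854, and their deviations gave 0.07, 0.20 and -0.45. Fkbp5 also ranked 1 after array medians were subtracted (r = 0.92), with a common floor (0.93) and without the 3 arrays with other tissues (0.96), and 6, 8 and 5 of the 8 genes most alike were shared with the list above.

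Among marker lists, Zbtb16 ran against the mean of the 6 adrenal cortex genes measured of 10 listed, Cyp11b1 not among them (r = -0.71), and of 4 T cell genes (r = -0.67). The adrenal mean lay between -0.03 and 0.22 in NX-VS-105, -0.25 and 0.24 in NX-alfacalcidol, -0.01 and 0.08 in NX-paricalcitol, 0.24 and 0.60 in NX-vehicle, and 0.25 and 0.82 in sham. The T cell mean lay between -1.49 and -0.70 on NX arrays and between -0.52 and 0.54 on sham arrays. Single genes weighed unequally in these means. Against sham the adrenal differences ran from -2.79 to 0.77 under VS-105 and from -2.34 to 0.56 under alfacalcidol, with 3 and 2 of the 6 genes higher. Those of the T cell genes ran from -2.65 to -0.30 and from -2.38 to -0.13, with 0 higher. Some genes of both lists lay near the lowest values of the arrays, and with all values below -2.71, the highest of the array minima, set to it, the correlations were -0.68 and -0.59. Without that floor Klf9 (r = -0.80 and -0.78) and Fkbp5 (r = -0.64 and -0.59) also ran against the adrenal and T cell means. The part of these lists in the Zbtb16, Klf9 and Fkbp5 values was not tested.

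Clock genes differed between the same groups. Bmal1, the central activator of the clock, averaged 0.20 ± 0.31 in NX-VS-105 aortas, -0.65 ± 0.28 in NX-alfacalcidol, 1.97 ± 0.24 in NX-paricalcitol, 1.95 ± 0.64 in NX-vehicle and 2.37 ± 0.42 in sham (SD, n = 3 each). Alfacalcidol and VS-105 arrays lay below all others. Per2, a repressor of the clock, averaged 3.01 in NX-VS-105, 3.64 in NX-alfacalcidol, 2.21 in NX-paricalcitol, 1.85 in NX-vehicle and 1.06 in sham. Its array 2 value in NX-vehicle, 2.46, was the highest of that group, as were those of Zbtb16 and Fkbp5. Ciart, another repressor, averaged 0.74, 1.67, -1.08, -2.11 and -3.30 in the same order, Dbp, a clock-controlled activator, 7.58, 8.30, 6.65, 5.86 and 4.59, and Nr1d1, the repressor of Bmal1, 3.61, 3.44, 3.07, 2.59 and 1.37. Per1, a clock gene and a direct glucocorticoid target, stayed between -0.68 and 0.09 and was not called in any comparison.

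Of 20 clock genes, limma called 8 higher and 4 lower under VS-105 against sham, 9 and 4 under alfacalcidol, 7 and 0 under paricalcitol, and 0 and 0 under vehicle, with 11 of the 20 at an unadjusted p under 0.05 under vehicle. Over all features 15.9%, 1.75%, 6.98% and 0% were called in these comparisons, and 9.04% had an unadjusted p under 0.05 under vehicle. Without sham array 2 or NX-paricalcitol array 2 the paricalcitol count was 0. Against vehicle the counts were 6 and 3 for VS-105, 3 and 1 for alfacalcidol, and 0 and 0 for paricalcitol, beside 4.55%, 0.0445% and 0% of all features. Leaving out the 3 arrays with other tissues leaves NX-vehicle with array 1 alone, so no count against vehicle is given for that fit. Without NX-VS-105 array 3 or NX-vehicle array 3 the VS-105 count was 1 of 20, and the alfacalcidol count was 0 without NX-alfacalcidol array 2 or 3 and without moderation. Bmal1 was lower under alfacalcidol and VS-105, by -2.59 (limma, adjusted p = 0.0148) and -1.75 (adjusted p = 0.0164) against vehicle. Leaving out single arrays lost these calls in 3 and 2 of 15 fits. Against NX-vehicle array 1 alone, without the 3 arrays with other tissues, the differences were -1.86 and -1.19. Over the 15 arrays Zbtb16 correlated with Bmal1 at -0.71, Ciart at 0.75, Dbp at 0.61 and Nr1d1 at 0.57. With group means removed the values were 0.68, -0.11, -0.65 and -0.16. Over all 20 clock genes the sign of the correlation was the same in 7, Per2 and Wee1 among them, and differed in 13. The mean of the 20 clock genes correlated with Klf9 at 0.87, with Zbtb16 at 0.68 and with Fkbp5 at 0.67 over the 15 arrays. A role of the hour of death in the levels of Zbtb16, Fkbp5 and Klf9 was not tested, since the labels give no hour.

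**Figure D4:**
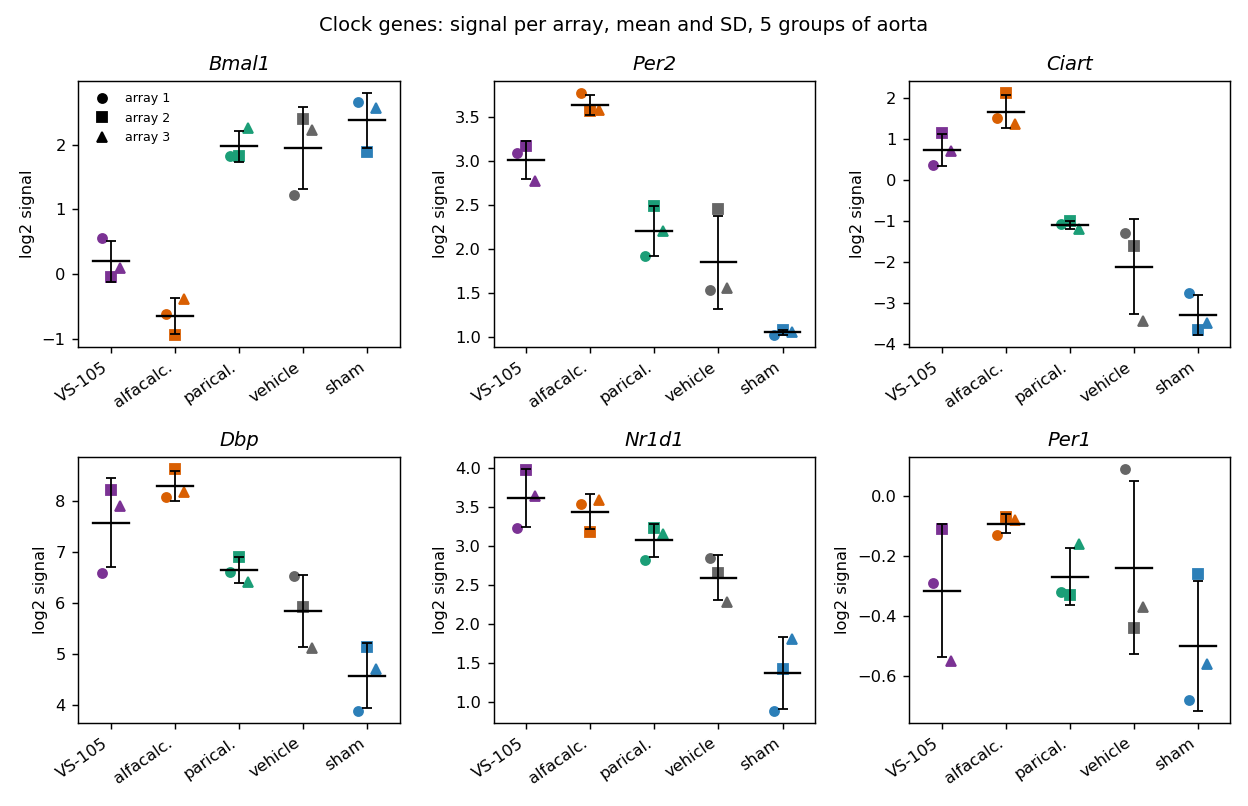
Log2 signal of 6 clock genes on each array (points, shaped by array number) in NX-VS-105, NX-alfacalcidol, NX-paricalcitol, NX-vehicle and sham aortas, with the mean and SD of 3 arrays. Bmal1 is low on the VS-105 and alfacalcidol arrays, Per2, Ciart and Dbp are highest on average under alfacalcidol, and Per1 stays between -0.68 and 0.09.

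**Figure D5:**
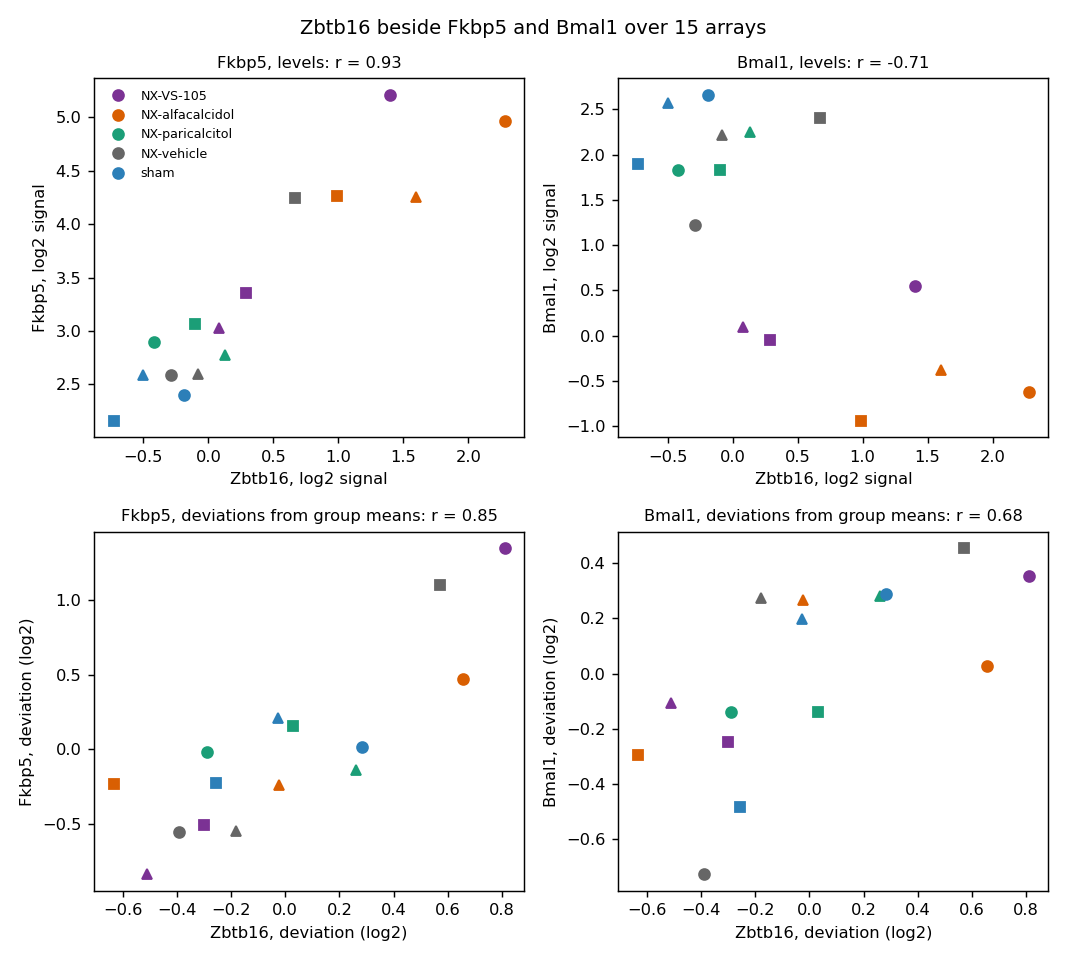
Fkbp5 (left) and Bmal1 (right) against Zbtb16 over 15 arrays coloured by group, as log2 signals (top) and as deviations from the group means (bottom). Fkbp5 follows Zbtb16 in both (r = 0.93 and 0.85), whereas Bmal1 runs against Zbtb16 across groups (r = -0.71) and with it within groups (r = 0.68).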

How the data were processed

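Aortic RNA of 15 pools of 2 rats was hybridised to one-colour Agilent arrays, with Cy3-labelled cRNA from a Low-Input Quick Amp kit, per the labels' protocols. The submitters' processing notes name Partek 6.0, and how background was corrected, arrays scaled and features selected is not given in the sources used here. Log2 signals of 15739 features were used as the authors deposited them. Their signed fold changes against sham, a score the authors deposited in comparison sheets, are negative for lower genes. The scale was checked against 164 fold changes in the authors' deposited sheets, which group means matched within 7e-06 (log2). The authors' deposited p-values were not used. No member is in the deposited 2-fold and 3-fold sheets. Array minima lay between -5.88 and -2.71.

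Group means of all 15 arrays were fitted with limma 3.58.1 in R 4.3.3 (10 residual degrees of freedom, prior variance 0.0502, prior degrees of freedom 2.62), and 7 two-sided contrasts were adjusted by Benjamini-Hochberg over all features. Features were called at an adjusted p under 0.05. The spread behind each p-value is that among pools, and precision is limited by 3 arrays a group. Levels are means ± SD. The members and gene lists were chosen with earlier results of these data known. Named were the 6 genes, Per1, Dusp1, list members called or of smallest p, 6 clock genes, and the 8 genes most and 4 least like Zbtb16 by Pearson r. Gene names came from a rat gene table (9191 current symbols, 1555 synonyms), and promoter windows were found for 5 of the 6 genes.

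Arrays of the same number deviated together in NX-paricalcitol and NX-vehicle (r = 0.62, 0.52 and 0.26). They were taken as pairs only in an added alternative fit of that comparison, on the evidence of the data alone. The p-values in the main results come from the fit without pairs. Alternatives were subtracted array medians, a common floor, array weights, no moderation, a filter on level, a replicate block and left-out arrays. Array weights used limma's gene-by-gene method, chosen after the default did not converge. The fit was tested on simulated data.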

Additional observations from a re-analysis of the deposited data

How the results depend on the processing

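Leaving out single arrays moved the count of called features between 0 and 2 for NX-vehicle against sham, 583 and 2778 for VS-105, 31 and 861 for alfacalcidol and 0 and 1482 for paricalcitol against sham. Against NX-vehicle it moved between 34 and 1275 for VS-105, 0 and 35 for alfacalcidol and 0 and 22 for paricalcitol. The count of glucocorticoid-induced genes moved between 0 and 2, 0 and 1, and 0 and 0 against vehicle for VS-105, alfacalcidol and paricalcitol, between 2 and 4, 1 and 4, and 0 and 3 against sham, and stayed at 0 for NX-vehicle. The Zbtb16 difference from sham ranged from 0.66 to 1.32 for VS-105, 1.77 to 2.41 for alfacalcidol, 0.21 to 0.49 for paricalcitol and 0.29 to 0.77 for vehicle, and that from vehicle from 0.08 to 0.77, 1.20 to 1.84 and -0.43 to 0.05.

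Subtracting array medians gave 152 called features for alfacalcidol and 14 for paricalcitol against vehicle, and 1 glucocorticoid-induced gene for alfacalcidol. A common floor gave 17 features for alfacalcidol against vehicle and 2 glucocorticoid-induced genes for alfacalcidol against sham. Array weights gave 3113, 5996 and 3107 features against vehicle for VS-105, alfacalcidol and paricalcitol, with 3, 6 and 2 glucocorticoid-induced genes. Against sham they gave 3209 features for alfacalcidol, 2804 for paricalcitol and 10 for vehicle, with 7 glucocorticoid-induced genes for alfacalcidol and 3 for paricalcitol. Without moderation 0 features were called for alfacalcidol and 8 for paricalcitol against vehicle, and 101 and 529 against sham, with 0 glucocorticoid-induced genes for paricalcitol. Testing only features above the median level, so fewer features, gave 13 and 6 for alfacalcidol and paricalcitol against vehicle and 1086, 109, 621 and 2 for VS-105, alfacalcidol, paricalcitol and vehicle against sham. The glucocorticoid-induced counts were then 2 for VS-105 and 1 for alfacalcidol against vehicle, and 2 for alfacalcidol against sham. Without the 3 arrays with other tissues, so fewer samples, 1012 features were called for VS-105 against sham. The glucocorticoid-induced counts were then 4 and 3 for alfacalcidol and paricalcitol against sham. NX-vehicle was left with array 1 alone, so counts against vehicle are not given.

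With the array number as a replicate block, 415 features were called for VS-105 and 3 for alfacalcidol against vehicle, and 104 for alfacalcidol and 294 for paricalcitol against sham, with 0 glucocorticoid-induced genes for paricalcitol. Pairing arrays within NX-paricalcitol and NX-vehicle alone left 0 called features and 0 glucocorticoid-induced genes. Outside that comparison same-numbered arrays share only a number (r between -0.45 and 0.20).

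Some differences that were not called changed sign. With array weights Tsc22d3 was at -0.12 for NX-vehicle against sham, Fkbp5 at 0.08 for paricalcitol against vehicle, Sgk1 at 0.01 for VS-105 against vehicle and Pdk4 at 0.09 for VS-105 against sham. Without the 3 arrays with other tissues NX-vehicle was array 1 alone, the array with the highest Pdk4 signal, 2.45. Fkbp5 was then at 0.32 for paricalcitol and Sgk1 at -0.23 for alfacalcidol against vehicle. Pdk4 was at -2.15 for VS-105 and -2.19 for alfacalcidol against vehicle and 1.80 for vehicle against sham. With single arrays left out Pdk4 ranged from -0.51 to 1.56, -0.67 to 1.39 and -1.43 to 0.66 against vehicle for VS-105, alfacalcidol and paricalcitol, and from -0.50 to 0.29, -0.80 to 0.13 and -1.78 to 0.28 against sham for VS-105, alfacalcidol and vehicle. Sgk1 ranged from -0.50 to 0.16 for VS-105 and -0.22 to 0.16 for paricalcitol against vehicle, Fkbp5 from -0.50 to 0.32 for paricalcitol against vehicle and Tsc22d3 from -0.01 to 0.38 for vehicle against sham. Where no construction is named, the cause was not tested.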
